A study of Mus musculus with 3 samples.

Results

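The miR-297, miR-466, miR-467 and miR-669 repeat families are groups of closely similar mouse microRNAs (miRNAs) that take most of their hairpins from an array inside the gene Sfmbt2. They were followed here in TAG1 embryonic stem (ES) cells under 3 states of Smad2/3 signaling. Members were taken by name, as every listed miR-297, miR-466, miR-467 or miR-669 with any letter, copy or arm. This gave 61 of the 693 listed names. Names that held identical values in all 3 libraries cannot be told apart and were counted once, which left 53 members of 679 listed miRNAs.

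A miRNA hairpin is cut by Drosha and Dicer into a short duplex, and either the 5p or the 3p arm of that duplex can be loaded into an Argonaute protein as the mature miRNA. Sfmbt2 encodes a Polycomb group protein and is an imprinted gene, expressed from the paternal allele in the early embryo and in extraembryonic tissue. The miRNA array in its intron is particular to rodents and is known to be active in mouse ES cells and in the placenta. Smad2 and Smad3 are the intracellular effectors of Nodal and Activin, which signal through the receptor Alk4 and act in the formation of mesoderm and endoderm.

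The line TAG1 was derived from J1 mouse ES cells and carries Alk4*, a constitutively active receptor that is switched on by doxycycline. Control cells received neither drug. SB cells were kept for 16 hrs in 30 µM of SB-431542 (written SB-431541 in the sample labels), an inhibitor of the receptor kinases that phosphorylate Smad2/3. Dox cells had the same 16 hrs of inhibitor and then 12 hrs of doxycycline, labelled as 1 µg/µl. Control cells grew in medium with fetal bovine serum and both treated cultures in serum replacement, so medium and treatment cannot be told apart in any comparison with Control. Each condition was 1 library, so no difference below has a replicate check, and no p-value was computed.

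Levels are in rpm, reads scaled to 1000000 reads of the library. A read was worth 0.0913 rpm in Control, 0.0881 rpm in SB and 0.101 rpm in Dox, which corresponds to between 9895513 and 11354692 reads a library. These totals are implied by the deposited values and are lower than the total reads stated by the study, and the cause was not tested. Shares of the total below rest on the implied totals. The listed miRNAs took 28.3% of these reads in Control, 24.1% in SB and 33.4% in Dox. All 15 miRNAs of an ES cell list (miR-290 to miR-295 and miR-302) were listed, with summed levels of 81814, 65163 and 93749 rpm in Control, SB and Dox. The list was balanced, with 4 higher and 4 lower in SB than in Control and 6 higher and 7 lower in Dox than in SB, and medians of -0.06 and -0.06 on the log2 scale. The 12 miRNAs of a fibroblast list, standing for feeder cells, were also all listed. They summed to 3615, 8909 and 4144 rpm, with 12 of 12 higher in SB than in Control and 11 of 12 lower in Dox than in SB. None of the 12 was at 0 in a library. Their part in the differences between members was not tested, and in such bulk RNA fewer cells of a type and less RNA per cell cannot be told apart.

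The mouse annotation (GENCODE M21, GRCm38) placed all 53 members by hairpin name. It held 81 hairpins of these families, 71 of them within Sfmbt2 (chr2:10370510-10595253, plus strand). These 71 hairpins lay on the strand of the gene and overlapped none of its exons. They stretched over 51617 bases, chr2:10466663-10518279, inside intron 10 of the transcript Sfmbt2-201 (chr2:10461473-10523944). Of the members, 45 had all of their hairpins in this intron, 4 had hairpins both there and elsewhere (miR-297a-3p with its identical names, miR-297a-5p, miR-466f and miR-466f-3p), and 4 had none there (miR-466i-5p, miR-466i-3p, miR-466k and miR-669n). The name Sfmbt2-type therefore holds by position for 45 members. For the 4 with hairpins in both places it holds in part, since their reads cannot be assigned to either place.

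The array was regular. Its 11 hairpins of Mir467a and Mir467b had 10 spacings with a median of 2454.5 bases, and 9 of these fell between 2400 and 2500 bases. A Mir466 hairpin followed 282 to 292 bases downstream of 10 of the 11. The abundant miR-467a-5p can thus arise from 10 hairpins and miR-669a-5p from 14, counting the copies of the identical miR-669p-5p, whereas miR-669c-5p comes from a single hairpin. Reads of a member with several hairpins cannot be assigned to one of them.

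Mature sequences of 3 members were held in the RefSeq table used (GRCm38.p6). They are given as examples of low-complexity repeat sequence. All 3 belong to members without a hairpin in Sfmbt2, so they do not stand for the members of the intron. Capitals mark the seed, bases 2 to 8.
miR-466i-3p: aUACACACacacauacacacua
miR-466k: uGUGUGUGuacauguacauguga
miR-669n: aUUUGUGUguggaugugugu
They lie at chr13:17747552-17747573, chr3:85467396-85467418 and chr3:115979905-115979924, in that order and each on the plus strand. The first is mostly a run of AC, the second opens on a run of GU, and the third also holds short runs of GU. No other listed miRNA with a sequence in that table shared bases 2 to 7 with any of the 3.

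The families were dominated by 1 member, miR-669c-5p. It stood at 1433 rpm in Control, 1091 rpm in SB and 1985 rpm in Dox. It was lowest in SB and highest in Dox, and the 95% counting intervals of the 3 levels did not overlap. It made up 73.3%, 63.5% and 77.2% of all member reads in Control, SB and Dox. All counting intervals here are exact 95% intervals. They cover counting error only, because the reads carry no molecular identifiers and copies of 1 molecule cannot be recognised.

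The other 52 members summed to 522 rpm in Control, 627 rpm in SB and 586 rpm in Dox. That is the opposite order of SB and Dox from miR-669c-5p. With miR-669c-5p, the sum was 1955, 1718 and 2570.8 rpm, or 0.690%, 0.712% and 0.770% of the reads on listed miRNAs. The log2 ratio of the summed level in Dox over SB was 0.58 (0.55 to 0.61) with miR-669c-5p and -0.10 (-0.15 to -0.05) without it. A sum over these families therefore follows a single miRNA.

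**Figure D1:**
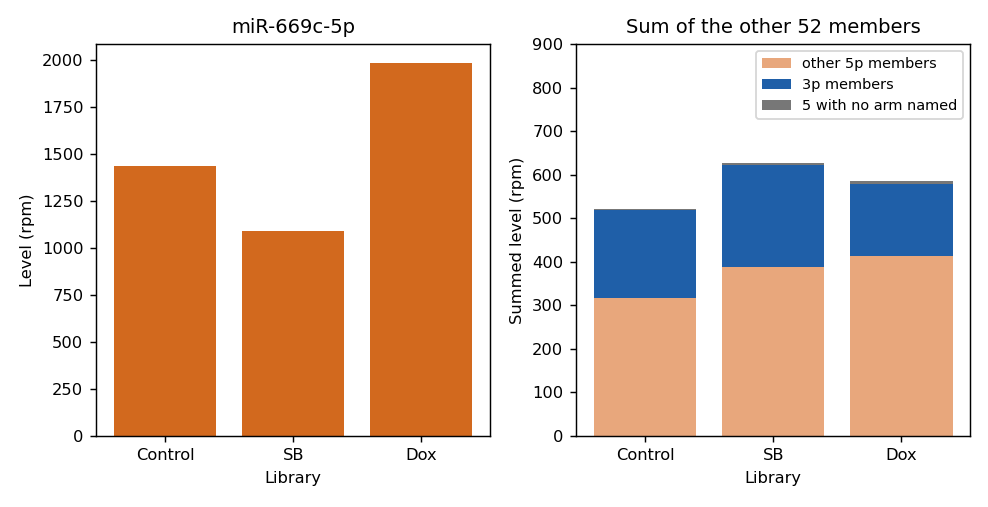
Level of miR-669c-5p (left) and summed level of the other 52 members (right) in rpm, 1 bar per library, with the right bars divided into 23 other 5p members, 24 3p members and 5 members with no arm in the name. miR-669c-5p is lowest in SB, whereas the other members together are highest there, and the 3p portion is smallest in Dox at 165 rpm.

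Most members were rare. Of the 53, 45 reached 1 rpm in a library, 19 reached 5 rpm, 14 reached 10 rpm and 2 reached 100 rpm. The median member had 16 reads in Control, 28 in SB and 25 in Dox, against 98, 87 and 90 for the median listed miRNA. At this depth 31 members had under 100 reads over the 3 libraries together, and their ratios have wide intervals.

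There were 9 members of the miR-467 family, 22 of miR-669, 18 of miR-466 and 4 of miR-297. The miR-467 members summed to 342, 416 and 376 rpm in Control, SB and Dox. The miR-669 members other than miR-669c-5p summed to 96.9, 126 and 132 rpm. The miR-466 members reached 77.2, 75.0 and 69.6 rpm and the miR-297 members 5.66, 9.51 and 8.39 rpm. Apart from miR-669c-5p, miR-467 was the best covered family, and miR-297 the poorest.

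After miR-669c-5p, the most abundant member was miR-467a-5p at 113 rpm in Control, 162 rpm in SB and 104 rpm in Dox. It was highest in SB. miR-467d had both arms at appreciable levels. Its 3p arm stood at 80.2, 79.1 and 49.5 rpm in Control, SB and Dox, and its 5p arm at 51.1, 66.1 and 49.4 rpm. The 3p arm was alike in Control and SB and lower in Dox, while the 5p arm was high in SB alone.

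miR-467c-5p stood at 43.0, 41.7 and 77.8 rpm in Control, SB and Dox. miR-467e-5p showed 32.5, 37.9 and 73.6 rpm. Both were highest in Dox, unlike the 5p arms of miR-467a and miR-467d from the same array. miR-669a-3p, which has the same values as miR-669o-3p, was measured at 38.3, 58.5 and 42.3 rpm. Its 5p counterpart, shared by name with miR-669p-5p, was measured at 18.7, 22.1 and 29.4 rpm. The 3p arm was thus highest in SB and the 5p arm in Dox.

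Of the remaining members that reached 10 rpm, miR-466f-3p stood at 22.6, 16.6 and 17.0 rpm in Control, SB and Dox. miR-467a-3p showed 14.8, 19.6 and 12.0 rpm. Control was the high library for the first and SB for the second. miR-669l-5p rested at 8.21 and 8.19 rpm in Control and SB and stood at 17.9 rpm in Dox. miR-669d-5p went from 5.93 to 7.13 and 11.6 rpm. These 2 miR-669 5p arms were both highest in Dox. miR-466n-5p showed 11.1, 6.52 and 8.59 rpm and was lowest in SB, and miR-466d-3p showed 6.39, 10.6 and 5.15 rpm and was highest in SB.

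**Figure D2:**
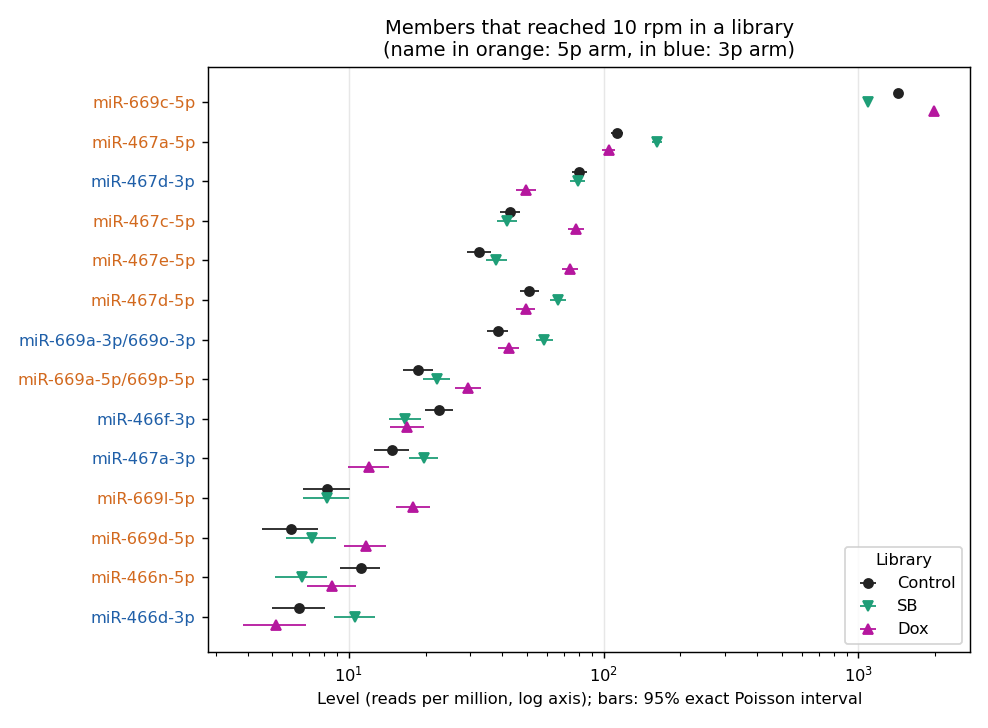
Levels in rpm on a log axis of the 14 members that reached 10 rpm in a library, with 1 point per library and bars for the 95% exact Poisson interval (for miR-669c-5p the bars are shorter than the points). Names in orange are 5p arms and names in blue 3p arms. The Dox point is far right of both others for miR-467c-5p, miR-467e-5p and miR-669l-5p, and left of both for miR-467d-3p.

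The first comparison, SB against Control, sets cells with blocked Smad2/3 phosphorylation beside untreated cells. More members stood higher than lower in SB, whereas listed miRNAs as a whole stood more often lower. The members of both arms had positive medians. The abundant miR-669c-5p went the other way.

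A member was called higher or lower by the criteria of the study's methods, which ask for a fold of 1.25 or more together with a Z-score beyond 1.96 in either direction, the Z-score being the difference of the read shares of 2 libraries over its sampling error. It compares libraries and not conditions. Few reads make it harder to pass, and members had fewer reads than listed miRNAs, so the backgrounds below are not at matched depth. Of the 53 members, 9 were higher in SB than in Control, beside a background of 14.9% over all listed miRNAs, and 3 were lower, beside a background of 30.5%. The share of members called higher (17.0%) was near its background, and the share called lower (5.66%) was below it. With libraries scaled to the reads on listed miRNAs the split was 17 higher and 1 lower, and with median-of-ratios factors 16 and 1. The backgrounds were then 23.1% and 20.9%, and 21.2% and 21.8%.

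Among the 24 5p members, 4 were higher and 2 lower, against 17.4% and 30.4% of all listed 5p miRNAs. miR-467a-5p rose by 0.52 on the log2 scale (0.41 to 0.62) and miR-467d-5p by 0.37 (0.21 to 0.53). The poorly covered miR-467b-5p, with 17 reads in Control and 42 in SB, had a log2 ratio of 1.25 (0.41 to 2.16). miR-297b-5p, with 14 and 28 reads, was called at 0.95, although its exact interval (-0.03 to 1.99) reached 0. The 2 lower members were miR-669c-5p at -0.39 (-0.43 to -0.36) and miR-466n-5p at -0.77 (-1.21 to -0.34). With either other scaling miR-669c-5p was no longer called, at -0.16 and -0.21. Scaling to the reads on listed miRNAs gave 9 higher and 1 lower 5p members, beside 25.8% and 21.7%. Median-of-ratios factors gave 8 and 1, beside 23.3% and 22.4%.

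Of the 24 3p members, 4 were higher and 1 lower, against 12.5% and 32.1% of all listed 3p miRNAs. The higher ones were miR-466d-3p with a log2 ratio of 0.73 (0.29 to 1.17), miR-669a-3p with miR-669o-3p at 0.61 (0.43 to 0.79), miR-466b-3p with miR-466c-3p and miR-466p-3p at 0.53 (0.05 to 1.03), and miR-467a-3p at 0.41 (0.11 to 0.71). The lower one was miR-466f-3p at -0.44 (-0.72 to -0.16), which was no longer called under either other scaling (-0.21 and -0.26). miR-466f, listed with no arm, went from 7 to 21 reads and was called higher at 1.53 (0.25 to 3.01). The 9 calls for higher members were all made under both other scalings too. These scalings each gave 7 higher and 0 lower 3p members, beside 20.9% and 21.3%, and 19.9% and 22.3%.

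The median log2 ratio of SB over Control was 0.25 for the 5p members and 0.41 for the 3p members, beside -0.21 for all listed miRNAs. The distance from that overall median, which scaling cannot change, was 0.46 for 5p and 0.62 for 3p members. The 3p median rested on rare members, since it was 0.13 with at least 10 reads in each library and 0.18 with a pseudocount of 1 rpm. The fibroblast list, with a median of 1.59 in this comparison, moved in the same direction.

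The second comparison, Dox against SB, has the same medium on both sides. The Dox cells differed by the end of the inhibitor step, by doxycycline and the receptor it induces, and by the further 12 hrs of culture, which cannot be told apart. No 3p member was higher in Dox, beside 41.6% of all listed 3p miRNAs, and 7 of 24 were lower, beside 18.9%, led in abundance by miR-467d-3p and miR-669a-3p. Of the 24 5p members 6 were higher, among them miR-669c-5p, miR-467c-5p and miR-467e-5p, and 2 were lower, miR-467a-5p and miR-467d-5p. The 5p share called higher (25.0%) was below the 44.4% of all listed 5p miRNAs. Under each of the other 2 scalings the 5p split was even, 4 higher and 4 lower. The 5p backgrounds were then 27.3% and 30.7%, and 29.8% and 28.6%.

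Over all 53 members, 7 were higher in Dox than in SB, beside a background of 42.4%, and 9 were lower, beside a background of 17.8%. The share called higher (13.2%) was below its background and the share called lower (17.0%) was near its own. Among the 34 members with at least 10 reads in each library 17.6% were higher and 20.6% lower, and no background was computed under that filter. Scaling to reads on listed miRNAs gave 4 higher and 17 lower, and median-of-ratios factors also gave 4 and 17. The backgrounds became 24.0% and 30.5%, and 27.2% and 28.0%. The authors' rpm put the median of all listed miRNAs at 0.40 in this comparison, and the other scalings at -0.07 and 0.02.

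The 2 lower calls among 5p members stood beside a background of 17.4%. miR-669l-5p rose by 1.13 (0.76 to 1.505) on the log2 scale, miR-467e-5p by 0.96 (0.78 to 1.13) and miR-467c-5p by 0.90 (0.73 to 1.07). miR-669c-5p rose by 0.86 (0.83 to 0.90). These 4 were higher under all 3 scalings, with miR-669c-5p at 0.39 and 0.48 under the others. miR-669d-5p at 0.70 (0.28 to 1.13) and miR-669a-5p with miR-669p-5p at 0.41 (0.16 to 0.66) were called with the authors' rpm and not under the other scalings. miR-467a-5p fell by 0.63 (-0.74 to -0.52) and miR-467d-5p fell by 0.42 (-0.59 to -0.25), both under every scaling.

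The divergence of these miR-467 5p arms does not depend on scaling, since it can be read as a ratio within each library. Such a ratio does not give the direction of each arm, which was the same under all 3 scalings in Dox over SB. Mir467e and Mir467d start 1909 bases apart in the intron. There were 0.636 reads of miR-467e-5p for each read of miR-467d-5p in Control, 0.573 in SB and 1.49 in Dox. This ratio was 2.60 times as high in Dox as in SB (2.19 to 3.07), and its change from Control to SB was 0.902 times (0.752 to 1.08). The ratio of miR-467c-5p to miR-467a-5p was 2.88 times as high in Dox as in SB (2.51 to 3.31), and in this pair SB also differed from Control, at 0.678 times (0.584 to 0.787). Both pairs were chosen after their values were seen.

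All 7 lower 3p members were lower under each of the 3 scalings. miR-467d-3p fell by 0.68 (-0.84 to -0.52), miR-467a-3p fell by 0.71 (-1.04 to -0.38), and miR-669a-3p with miR-669o-3p fell by 0.47 (-0.65 to -0.29). miR-466d-3p fell by 1.04 (-1.54 to -0.55) and miR-466a-3p with miR-466e-3p fell by 0.80 (-1.34 to -0.28). The other 2 had few reads. miR-467c-3p went from 22 reads in SB to 5 in Dox, a log2 ratio of -1.94 (-3.70 to -0.50). miR-669e-3p went from 10 reads to 2, a ratio of -2.12 whose exact interval (-5.35 to 0.11) reached 0. Under both other scalings 13 of the 24 3p members were lower and again none was higher, beside backgrounds of 32.1% and 29.4% lower.

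The summed level of the 3p members was 203 rpm in Control, 233 rpm in SB and 165 rpm in Dox, a log2 ratio of -0.50 (-0.59 to -0.41) in Dox over SB. The 5p members other than miR-669c-5p summed to 316, 389 and 414 rpm, a ratio of 0.09 (0.03 to 0.15). Within the miR-467 family the contrast was between 3p arms, which fell from 105 to 66.4 rpm, and 5p arms, which stood at 311 and 310 rpm. The miR-669 5p members other than miR-669c-5p summed to 53.9 rpm in SB and 77.9 rpm in Dox.

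Medians told the arms apart in the same way. The median log2 ratio of Dox over SB was 0.32 for 5p and -0.46 for 3p members, beside 0.40 for all listed miRNAs. Outside the families the arms had like medians, 0.41 for 5p and 0.41 for 3p miRNAs. The distance from the overall median was -0.08 for 5p and -0.86 for 3p members. Under the other 2 scalings the 5p median itself was negative, at -0.15 and -0.06. Of the 5 members with no arm named, only miR-669n was called in this comparison, with 2 reads in SB and 9 in Dox, a log2 ratio of 2.37 (0.10 to 5.62), and it was not called under the other scalings. The fibroblast list, which fell with a median of -2.49, moved in the direction of the 3p members. With the authors' rpm this was opposite to the 5p median.

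**Figure D3:**
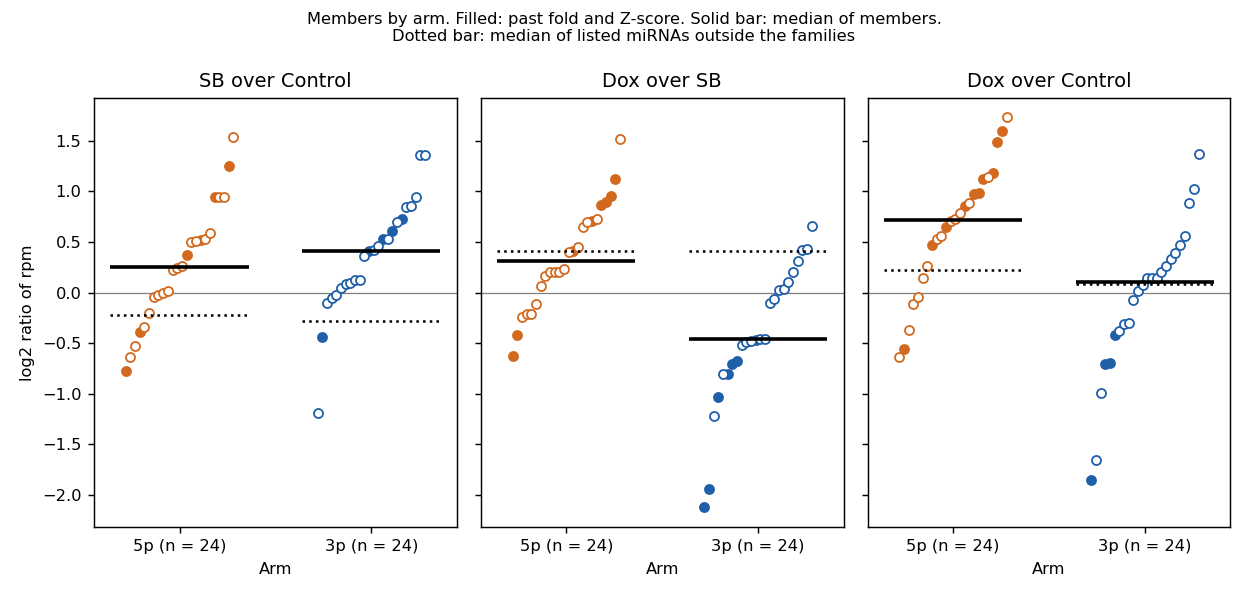
Log2 ratio of rpm of each 5p and 3p member (24 of each, sorted by value) in the 3 comparisons, with filled points for members past the fold and Z-score, a solid bar at the median of the members and a dotted bar at the median of listed miRNAs of that arm outside the families. In Dox over SB the solid bar of the 3p members lies at -0.46 and the dotted one at 0.41, while both bars of the 5p arm lie above 0.

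The third comparison, Dox against Control, shares its libraries with the other comparisons and mixes medium with treatment. Calls for higher members were again made mostly on 5p arms. Calls for lower members were made mostly on 3p arms.

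Of the 53 members, 11 were higher in Dox than in Control, beside a background of 30.9%, and 5 were lower, beside a background of 19.6%. Both shares, 20.8% and 9.43%, were below their backgrounds, which are not at matched depth. Among the 34 members with at least 10 reads in each library 26.5% were higher and 11.8% lower, and no background was computed under that filter. Scaling to reads on listed miRNAs gave 9 higher and 10 lower, beside 20.9% and 29.2%, and median-of-ratios factors gave 9 and 8, beside 22.4% and 26.8%. Of the 24 5p members, 9 were higher and 1 lower, against 33.5% and 16.8% of listed 5p miRNAs. No 3p member was higher and 4 were lower, against 28.7% and 23.6% of listed 3p miRNAs. Under the same other scalings the 5p split was 7 higher and 4 lower, beside 22.4% and 28.3%, and 7 and 3, beside 24.8% and 25.8%. The 3p split was 0 and 6, beside 18.9% and 32.1%, and 0 and 5, beside 19.6% and 30.1%.

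miR-467e-5p rose by 1.18 (0.99 to 1.37), miR-669l-5p by 1.12 (0.75 to 1.51), miR-669d-5p by 0.97 (0.52 to 1.43) and miR-467c-5p by 0.86 (0.69 to 1.02). The identical pair miR-669a-5p and miR-669p-5p rose by 0.65 (0.39 to 0.92), and miR-669c-5p rose by 0.47 (0.44 to 0.50), a call that neither other scaling gave (0.23 and 0.27). miR-467b-5p at 1.49 (0.65 to 2.39), miR-669f-5p at 1.59 (0.56 to 2.74) and miR-669b-5p at 0.98 (-0.02 to 2.04) completed the 5p calls, each on under 50 reads a library, and the last was not called under the other scalings. miR-466f at 1.86 (0.60 to 3.33) and miR-466g at 1.61 (0.38 to 2.98) were the calls without an arm.

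The lower members were miR-467d-3p at -0.70 (-0.86 to -0.54), miR-466f-3p at -0.42 (-0.71 to -0.13), miR-466a-3p with miR-466e-3p at -0.71 (-1.25 to -0.18), miR-467c-3p at -1.85 (-3.62 to -0.40) and, on the 5p side, miR-669h-5p at -0.56 (-1.06 to -0.07). miR-467a-5p and miR-467d-5p had ratios of -0.11 (-0.23 to 0.01) and -0.05 (-0.23 to 0.13) with the authors' rpm. At the other scalings miR-467a-5p was at -0.35 and -0.31 and was called lower at the first alone. The median log2 ratio was 0.72 for the 5p and 0.11 for the 3p members, beside 0.19 for all listed miRNAs. The 3p median changed sign with the scaling, to -0.13 and -0.09. The fibroblast list had a median of -0.53 in this comparison, with 2 higher and 5 lower. Both arm medians were positive with the authors' rpm.

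The study searched for miRNAs that fell with the inhibitor and rose with the active receptor. Of the members, miR-669c-5p alone had this course, being lower in SB than in Control and higher in Dox than in SB. Outside the families 144 of 626 listed miRNAs (23.0%) had it. Under the other scalings no member had it, beside 12.6% and 13.7% outside the families. The inverse course, higher in SB and lower in Dox, was shown by 5 members, namely miR-467a-5p, miR-467d-5p, miR-467a-3p, miR-466d-3p and miR-669a-3p with miR-669o-3p. Their share (9.43%) was near that outside the families, where 60 miRNAs (9.58%) had the inverse course. The other scalings each gave 10 members (18.9%), beside 16.0% and 14.5% outside the families. Both courses use the SB library on each side, so a high or low SB value alone can give them. A further 31 members (58.5%) were called in neither step, beside 161 miRNAs (25.7%) outside the families. These members include most of the rare ones, and few reads make a call harder to reach.

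The balance of the arms was also measured hairpin by hairpin, as the ratio of 3p to 5p reads within a library. Scaling cancels in this ratio. Both arms were listed for 23 hairpin names of the families, and for 216 others. The 3p to 5p ratio was lower in Dox than in SB for 22 of the 23, with miR-669h as the exception, and the median log2 change was -0.70. Among the other hairpins 117 of 216 were lower, with a median of -0.16.

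The exact 95% interval of the change lay below 1 for 5 of the 23 hairpin names and above 1 for 0, beside backgrounds of 28.5% lower and 22.2% higher over all 239 hairpins. The share with a lower ratio (21.7%) was thus not above its background, and no name had a higher one. For miR-467c the ratio in Dox was 0.140 times that in SB (0.0412 to 0.383), since the 3p share of its reads was 4.07% in Control, 4.44% in SB and 0.645% in Dox. For miR-467e it was 0.479 times (0.307 to 0.745), with 3p shares of 11.7%, 11.0% and 5.58%. In both, the 5p arm is the major one and rose while the 3p arm did not.

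For miR-669a the ratio in Dox was 0.544 times that in SB (0.439 to 0.674), with 3p shares of 67.2%, 72.6% and 59.0% in Control, SB and Dox. Here the 3p arm is the major one. For miR-467d it was 0.837 times (0.712 to 0.984), and its 3p share went from 61.1% in Control to 54.5% in SB and 50.1% in Dox. The ratio of miR-467d had already been lower in SB than in Control, at 0.763 times (0.659 to 0.883). miR-669e, at 0.142 times (0.0142 to 0.783), rested on 2 reads of the 3p arm in Dox. For miR-467a, whose arms fell together, the change was 0.947 times (0.741 to 1.204).

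An arm that occurs under several names enters more than 1 pair, and its reads can come from hairpins that do not give the other arm. This holds for miR-669a, whose 3p reads can include those of Mir669o and whose 5p reads those of Mir669p. With the 14 names that share no arm, 13 had a lower ratio and 4 had an interval below 1. With the 11 names that had at least 10 reads of each arm in each library, 11 had a lower ratio and 3 (27.3%) an interval below 1. Of 158 other hairpins with as many reads, 89 had a lower ratio and 34.8% an interval below 1, so the share of members was not above theirs. For Dox against Control, 21 of 23 were lower, 4 with an interval below 1 and 0 with one above it, beside backgrounds of 26.8% and 21.3%. For SB against Control, 11 of 23 were lower and the median change was 0.02, with 1 interval below 1 (miR-467d) and 2 above it (miR-466d and miR-669a), beside 15.5% and 15.1%.

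**Figure D4:**
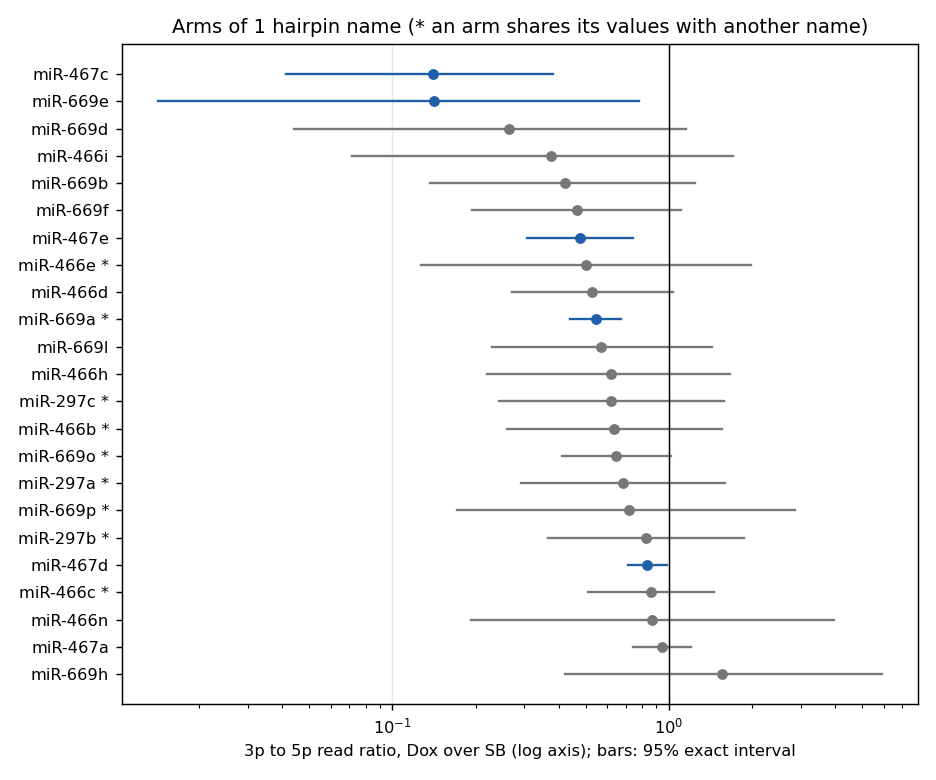
Ratio of 3p to 5p reads in Dox over that in SB for the 23 hairpin names with both arms listed, on a log axis, with 95% exact intervals and blue for the 5 intervals that lie below 1. An asterisk marks a name with an arm whose values are shared with another name. Points of 22 names lie left of 1, and miR-669h lies right of it.

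Position in the array was set beside the Dox over SB ratio for the 45 members placed in the intron alone. Of these, 6 were higher and 9 lower, beside 42.4% and 17.8% of all listed miRNAs. Among 22 5p members 6 were higher and 2 lower, beside 44.4% and 17.4%, and among 21 3p members 0 were higher and 7 lower, beside 41.6% and 18.9%. Of the higher 5p members with a single hairpin, miR-669l and miR-467c came from the first 10 kb of the array, and miR-467e and miR-669c lay further downstream. Of the lowered 5p members, miR-467a-5p belongs to the regular repeats between them, but miR-467d-5p, at 41.0 kb, lies between miR-467e at 39.1 kb and miR-669c at 42.6 kb. The hairpins of miR-669a-5p and miR-669p-5p, also higher, spread from 7.77 to 43.5 kb, so higher and lower 5p members were not separated by position. The 4 members without a hairpin in the intron had between 2 and 16 reads a library. Their Dox over SB ratios ran from 0.11 for miR-466i-3p to 2.37 for miR-669n, and reads this few allow no comparison with the intronic members.

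**Figure D5:**
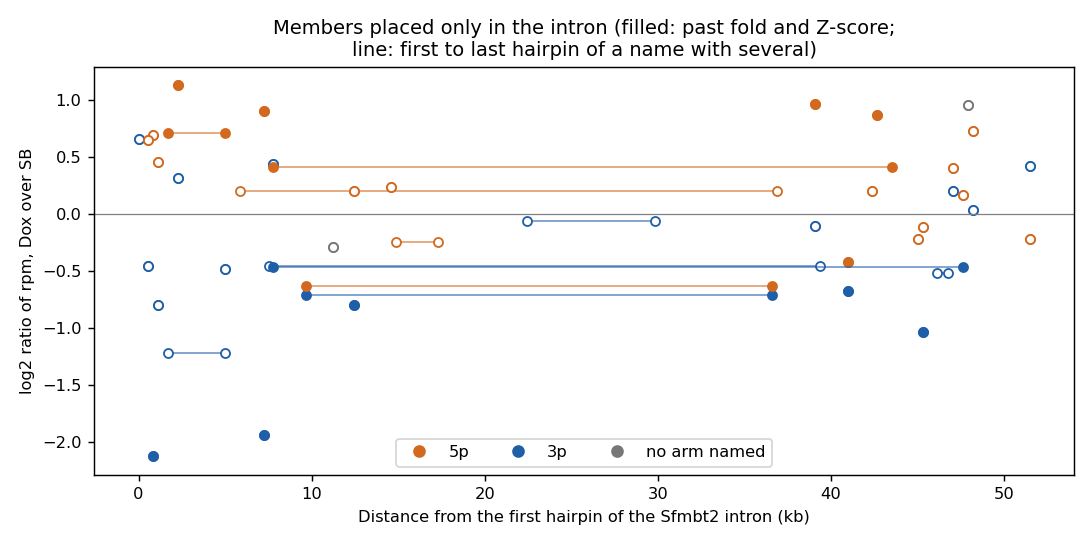
Log2 ratio of rpm in Dox over SB of the 45 members placed only in the Sfmbt2 intron, against the distance in kb of their hairpins from the first hairpin of the array. Filled points are past the fold and Z-score, and a line joins the first and last hairpin of a member with several. Filled orange 5p points above 0 occur in the first 10 kb and again at 39.1 and 42.6 kb, and none lies beyond 43.5 kb.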

How the data were processed

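Total RNA with its short fraction from TAG1 ES cells was sequenced as 36-base reads, 1 library for each of Control, SB and Dox. The authors clipped adaptors, kept reads over 16 bases, matched them without mismatches to miRBase 18 with Bowtie 0.12.7 (version per the labels), assigned a read that fitted several miRNAs by length or to each of them, pooled 2 runs, and kept miRNAs with at least 10 reads over the 3 samples. The deposited values are rpm, the reads of a miRNA scaled to 1000000 reads of its library. Closely similar repeats can therefore share reads.

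Each value was a whole multiple of the value of 1 read (largest distance from a whole number 3.98e-05 of a read), so reads were recovered by dividing by that step. Ratios were taken without a pseudocount, over the whole table. Intervals at 95% were exact, Poisson for levels, Clopper-Pearson for ratios and shares, and conditional for 3p to 5p ratios. Any member could be named. Those that reached 10 rpm were given value by value and the others by counts and ranges or where a call fell on them. The members, the gene lists and the tests were chosen with earlier results of these data known. Hairpins were placed by name on GENCODE M21, and sequences came from RefSeq (3 of 61 names, 516 of 693 listed), too few to compare base composition (4.92%). Calls and intervals were tested on simulated reads. The alternatives were 2 other scalings, a minimum of 10 reads in each library, a pseudocount of 1 rpm, folds of 1.5 and 2, every name counted, and a 99% interval. Python 3.11.15, NumPy 2.4.6, pandas 2.3.3, SciPy 1.17.1 and matplotlib 3.10.9 were used.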

Additional observations from a re-analysis of the deposited data

How the results depend on the processing

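Of 80 alternative values, 43 kept their direction and lay within 1.5 times the reported value, 32 moved and 5 changed sign. Scaling to the reads on listed miRNAs, or with median-of-ratios factors, gave 17 or 16 members higher and 1 or 1 lower in SB against Control, 4 or 4 higher and 17 or 17 lower in Dox against SB, and 10 or 8 lower in Dox against Control. The median log2 ratio of SB over Control became 0.48 or 0.43 for 5p members, and 0.64 for 3p members with the first of these. That of 3p members in Dox over Control became -0.13 or -0.089. In Dox against SB the median of 5p members became -0.15 or -0.064, that of 3p members -0.93 or -0.84, and the log2 ratio of the sum without miR-669c-5p -0.57 or -0.48. Including miR-669c-5p turned the last to 0.58. A fold of at least 1.5 left 5 higher and 1 lower in SB against Control and 3 lower in Dox against Control. A fold of at least 2 left 2 higher and 0 lower in SB against Control, 2 higher and 3 lower in Dox against SB, and 6 higher and 1 lower in Dox against Control. No share over all listed miRNAs was computed at either fold, so these counts cannot be set beside other miRNAs. Hairpin names with a lower 3p to 5p ratio in Dox numbered 3 with at least 10 reads of each arm in each library and 3 with a 99% interval. The 3p median of SB over Control was 0.13 with at least 10 reads in each library and 0.18 with a pseudocount of 1 rpm, which also gave medians of Dox over Control of 0.45 for 5p and 0.047 for 3p members. Counting every name gave no value that moved or changed sign.

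Depth limits the rare members most, since 19 of the 53 had under 10 reads in at least 1 library. With 1 library per condition, neither a library effect nor the spread between cultures can be told apart from treatment. No paired analysis was possible because each condition had a single library with no replicate number.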
